A study of Mus musculus with 8 samples.

Results

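The cytosolic ribosomal proteins are the protein components of the particle that translates messenger RNA in the cytoplasm, and the transcripts that encode them were compared here between control and RANKL-treated mouse intestinal organoids. The genes were chosen by name alone, as protein-coding genes whose symbol starts with Rpl or Rps followed by a number, by "a" or by the stalk names p0 to p2. Pseudogenes and the Rps6k kinases were left out. Of the 54532 genes listed in the count table, 83 were members, 51 of the large and 32 of the small subunit. Another 4 symbols of the same form, including Rps4l, are not annotated as protein coding and were not counted as members.

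Organoids are small epithelial cultures grown from intestinal crypts in a gel, and the medium held EGF, NOGGIN and R-spondin. The 4 control and 4 RANKL libraries came from mouse intestinal organoids cultured without and with RANKL, the cytokine that binds the receptor RANK. The labels give no genetic difference between the groups, and neither the amount of RANKL added nor the time of exposure of these cultures is given in the sources used here. RNA was read near the 3′ end of transcripts only, so that a value does not grow with transcript length. Nothing in the labels says that the libraries of a group came from separate cultures, so p-values measure only the spread between these libraries.

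Each ribosome has a small subunit, which decodes the message, and a large subunit, which joins the amino acids. Most vertebrate ribosomal protein messages begin with a C followed by a run of pyrimidines, the 5′ terminal oligopyrimidine or TOP motif, through which their translation follows the activity of the kinase mTOR and the binding protein LARP1. In the intestine, ribosome production is high in the dividing cells of the crypt.

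Library totals ran from 583663 to 7807298 counts in control and from 613135 to 1923354 in RANKL libraries. The 6 epithelial markers tested (Epcam, Cdh1, Vil1, Krt8, Krt18 and Krt20) had counts, and their sum was 5298 to 6163 counts per 1000000 of the scaled library total (CPM) in control and 5360.1 to 5828 in RANKL libraries. The sums of 5 fibroblast markers were at most 3.44 CPM in any library, with Dcn at 0 counts, and those of 5 immune markers were 0.253 to 1.72 CPM in control and 7.82 to 11.3 in RANKL libraries, with Cd3e and Cd79a at 0 counts. Of 4 M cell markers, 3 passed the test described below, and their sum was 7.86 to 12 CPM in control and 1611 to 1871 in RANKL libraries, with Gp2 at 0 counts. In bulk RNA, fewer cells of a type and less RNA per cell cannot be told apart.

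The starts of some member genes show the TOP motif directly. RefSeq start windows of GRCm38.p6 were at hand for 63 of the 83 members, and a run of at least 5 C or T bases that opens with a C lay exactly on the annotated start base in 12 of them (19.0%), against 683 of 27025 (2.5%) of all genes with a window. The 30 bases around the start are printed for 6 of these members, 15 before the start base and 15 from it on, with the run in capitals. They are shown because Rpl14, Rps15a and Rps10 were lower with RANKL, Rps18 was higher, and Rpl38 and Rps21 did not pass the test, although every one of them opens with such a run.
Rpl14: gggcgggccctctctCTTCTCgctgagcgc
Rps15a: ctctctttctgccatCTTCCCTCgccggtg
Rps10: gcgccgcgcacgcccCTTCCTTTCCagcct
Rps18: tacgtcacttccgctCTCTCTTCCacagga
Rpl38: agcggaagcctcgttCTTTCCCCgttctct
Rps21: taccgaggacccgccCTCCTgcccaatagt
These windows lie at chr9:120571502-120571531 on the plus strand (Rpl14), chr7:118116133-118116162 on the minus strand (Rps15a), chr17:27635230-27635259 on the minus strand (Rps10), chr17:33955651-33955680 on the minus strand (Rps18), chr11:114668565-114668594 on the plus strand (Rpl38) and chr2:180257364-180257393 on the plus strand (Rps21). The match was searched on the gene's own strand and at the annotated base only, and is a description of these letters, since a start annotated a few bases away would miss it. Among the 10 tested members with such a run 3 were lower (30%) and 1 higher, with a median log2 fold change of 0.07. Among the 41 tested members with a window and no run at that base 7 were lower (17.1%) and 1 higher, with a median of -0.10. In the tested family 25.0% were lower and 4.41% higher. Over all genes tested 12.4% were lower and 13.6% higher. A relation between the run and the direction of change was not tested.

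The summed transcripts of the family took a smaller part of the RANKL libraries. All 83 genes together held 3.59%, 3.16%, 3.42% and 3.15% of the counts in control libraries 1 to 4. In RANKL libraries 1 to 4 they held 2.72%, 2.88%, 2.98% and 2.63%. Every RANKL library lay under every control library, and the nearest values of the groups, 3.15% (95% Wilson interval 3.11 to 3.20) in control 4 and 2.98% (2.95 to 3.00) in RANKL 3, were apart by more than counting error. The mean share was 3.33% ± 0.213 (SD, n = 4) in control and 2.80% ± 0.156 (SD, n = 4) in RANKL libraries, a ratio of 0.841 (log2 ratio -0.25). Since the genes were picked as a family with earlier results known, the share is given as a description with no test.

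**Figure D1:**
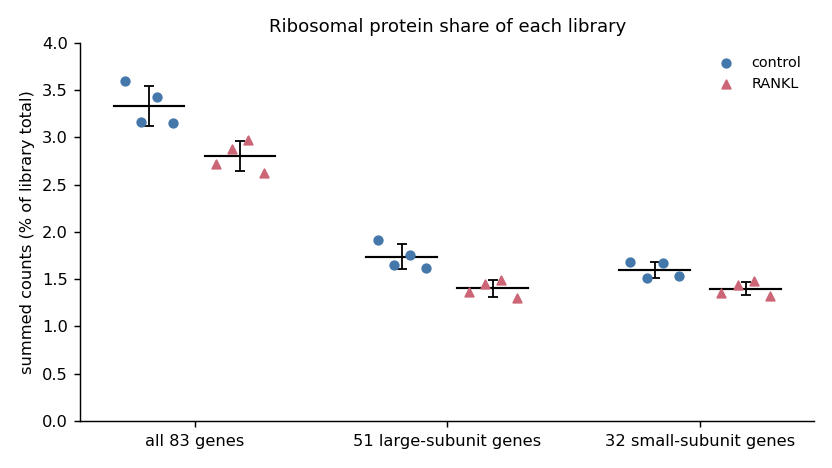
Summed counts of the ribosomal protein genes as a percent of each library's total (vertical axis, from 0), for all 83 genes and for the large and small subunit genes, with 1 point per library, circles for control and triangles for RANKL. Bars show the mean ± SD of 4 libraries, and in each of the 3 sets every RANKL point lies below every control point.

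The summed transcript counts of the large-subunit genes fell more than those of the small-subunit genes. The subunits themselves were not measured. The 51 large-subunit genes held 1.73% ± 0.132 of the counts in control and 1.40% ± 0.0854 in RANKL libraries (SD, n = 4), and the 32 small-subunit genes held 1.6% ± 0.0866 and 1.40% ± 0.0714 (SD, n = 4). The ratio of large- to small-subunit counts was 1.14, 1.09, 1.05 and 1.06 in control libraries 1 to 4 and 1.01, 1.01, 1.01 and 0.98 in RANKL libraries 1 to 4, so the groups did not overlap. A few genes made up most of these sums. Rps20, Rpl8 and Rplp1 held 29.7% of the family's counts over the 8 libraries and the 10 most abundant members 64.7%. Without those 3 genes the share was 2.31% ± 0.156 in control and 2.07% ± 0.0813 in RANKL libraries (SD, n = 4), a smaller log2 ratio of -0.16. The groups still did not overlap, but only narrowly, with 2.20% in control 3 and 2.17% in RANKL 3. No counting interval was computed for these values. Rps20 alone made up 27.9% of the difference between the group means, Rplp1 15.5%, Rpl14 12.9%, Rpl8 11.7% and Rpl13 7.70%.

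The sum of the 300 listed ribosomal protein pseudogenes did not separate the groups, at 0.0488% to 0.0534% in control and 0.0445% to 0.0516% in RANKL libraries, nor did that of the 78 mitochondrial ribosomal protein genes, at 0.591% to 0.639% and 0.578% to 0.60%. Genes that overlap ribosomal RNA repeats (Gm42418 and Gm26917, with AY036118 at 0 counts) moved in the same direction as the family, from 1.65% to 3.40% of counts in control to 1.08% to 1.55% in RANKL libraries. With these genes taken out of the totals the log2 ratio of the family's share was -0.27. Sums over markers of dividing cells (Mki67, Top2a, Birc5 and Cdk1) were 1346 to 1582 CPM in control and 1209 to 1303 in RANKL libraries, and those of 4 stem cell markers 1192 to 1601 and 1018 to 1221 CPM. Of the stem cell markers 3 of 4 passed edgeR's quasi-likelihood test (Benjamini-Hochberg adjusted), Lgr5 (log2 fold change -2.22 ± 0.20 SE) and Smoc2 (-0.76 ± 0.13 SE) as lower and Ascl2 (1.1 ± 0.18 SE) as higher, while Olfm4 did not pass. Of the markers of dividing cells 1 of 4 passed, Mki67 (-0.37 ± 0.12 SE), as lower. The part of dividing or stem cells in the family's share was not tested.

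Each gene was tested with edgeR's quasi-likelihood test across all genes that passed its filter on low counts, with Benjamini-Hochberg adjustment over all of them and a threshold of 0.05. Of the 83 members, 68 were tested. Of these, 20 passed (29.4%), against 25.9% of all genes tested, so the number of calls was near the background. The direction was less even. Of the 68, 17 were lower (25.0%), against 12.4% of all genes tested, and 3 were higher (4.41%), against 13.6%. The median log2 fold change of the tested members was -0.10, against 0.00 for all genes, and it was 0.20, against 0.29 for all genes, where each library was scaled to the family's own sum. CPM did not overlap between the groups for 18 members (26.5%), against 24.6% of all genes tested, so this number was near the background too. Of the 18, 14 were lower, a split by direction that was not counted over all genes. The changes were small, between -0.94 and 0.47 on the log2 scale, and no member changed by as much as 1.

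**Figure D2:**
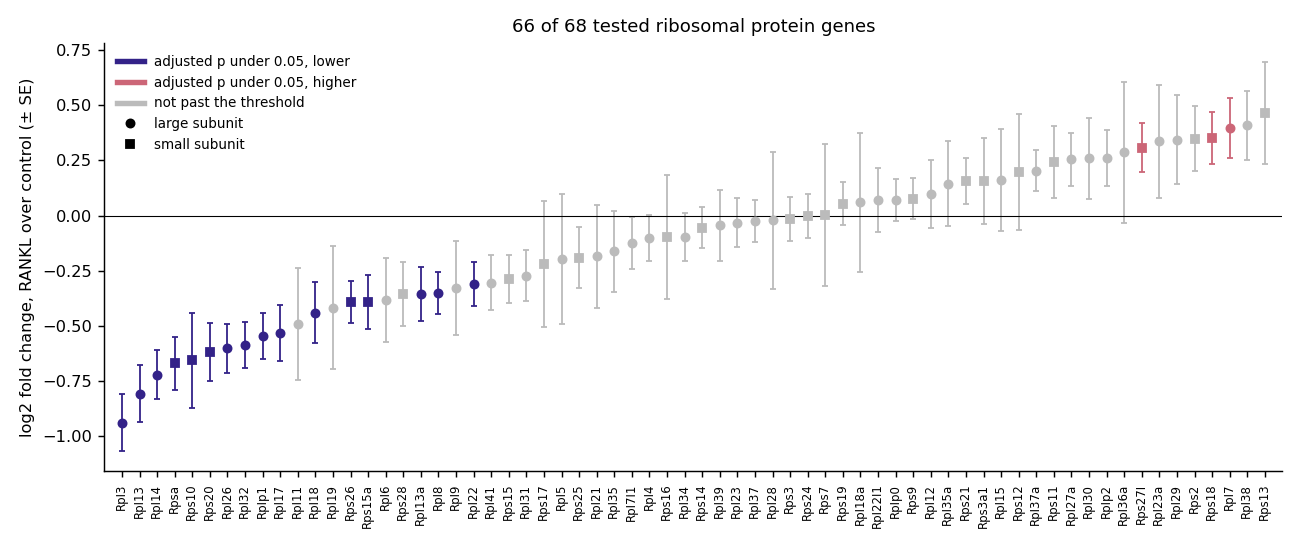
Log2 fold change of RANKL over control with its standard error (vertical axis) for 66 of the 68 tested ribosomal protein genes, ordered from the largest fall to the largest rise. Circles are large- and squares small-subunit genes, with 16 coloured points that passed the test as lower, 3 that passed as higher and 47 grey points that did not pass.

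Most calls were among abundant transcripts, where the test is more precise. Of the 38 tested members with a mean of at least 100 CPM, 14 were lower (36.8%), against 22.6% of all genes tested at that level, and 2 were higher (5.26%), against 17.2%. The median log2 fold change of these 38 members was -0.21, against -0.04 for all genes at that level. Of the 30 members under 100 CPM, 3 were lower and 1 higher, with a median of 0.03. The median standard error was 0.11 in the first and 0.21 in the second set. A change of a given size was therefore less detectable in the second set at this depth. In the second set 14 log2 fold changes were negative and 16 positive, against 27 and 11 in the first. The part of precision in the number of calls was not tested. By subunit, 11 of 42 large-subunit genes were lower (26.2%) and 1 higher (2.38%), with a median of -0.11. Of 26 small-subunit genes 6 were lower (23.1%) and 2 higher (7.69%), with a median of -0.04.

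The number of calls varied with the libraries and the depth term in the fit, over all genes as well as among the members. Without RANKL library 4, which held the lowest value of 12 of the 17 lower members, 12 members were lower and 1 higher, and over all genes tested the lower calls went from 1232 to 814 and the higher ones from 1355 to 1039. Without RANKL library 3 there was 1 higher member and 16 lower ones, and without control library 1 there were 6 higher and 15 lower. With depth (the log2 of the library total) as a covariate in the fit, 11 members were lower and 1 higher, and over all genes 808 were lower and 1019 higher.

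Among the most abundant members, Rps20, a protein of the head of the small subunit (chr4:3831334-3835665, minus strand, GRCm38), stood at 4311, 3632, 6128 and 3924 CPM in control libraries and at 2972, 3216, 3332 and 2232 CPM in RANKL libraries. The groups did not overlap, although control 3 was far above the other controls, and the log2 fold change was -0.62 ± 0.13 (SE; edgeR's quasi-likelihood test, Benjamini-Hochberg adjusted p = 0.00059). Rpl8, which lies close to the centre where peptide bonds form (chr15:76904078-76906314, plus strand), had 3119, 2899, 3574 and 2849.6 CPM in control and 2275, 2580.3, 2607 and 2297 CPM in RANKL libraries. Its fall was even over the libraries and smaller, with a log2 fold change of -0.35 ± 0.10 (SE; edgeR's quasi-likelihood test, Benjamini-Hochberg adjusted p = 0.0072).

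The deepest falls were in 4 members. Rpl3, another protein that reaches towards the peptidyl transferase centre (chr15:80077791-80091868, minus strand), had 159.8, 117, 168 and 134 CPM in control and 69.4, 84.7, 81.9 and 67.0 CPM in RANKL libraries. Each RANKL value was well under the lowest control, and the log2 fold change of -0.94 ± 0.13 (SE) was the largest of the family (edgeR's quasi-likelihood test, Benjamini-Hochberg adjusted p = 1.4e-06). Rpl13, a large-subunit protein (chr8:123102350-123105244, plus strand), had 1228, 846, 1173 and 731 CPM in control and 502, 592, 678 and 512 CPM in RANKL libraries, and its controls fell into a higher and a lower pair that both lay above all RANKL values. Its log2 fold change was -0.81 ± 0.13 (SE; adjusted p = 1.3e-05, same test). Rpl14, whose start with its TOP run is printed above, had 1857, 1576, 2179 and 1622 CPM in control and 1007, 1209, 1244 and 929.8 CPM in RANKL libraries. The groups were far apart, with a log2 fold change of -0.72 ± 0.11 (SE; adjusted p = 7.6e-06, same test). Rpsa, a small-subunit protein near the mRNA exit that is also known as the laminin receptor precursor, had 159.5, 131, 169 and 172 CPM in control and 88.8, 99.1, 113 and 87.9 CPM in RANKL libraries. Its groups did not overlap either (log2 fold change -0.67 ± 0.12 SE; adjusted p = 7e-05, same test).

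**Figure D3:**
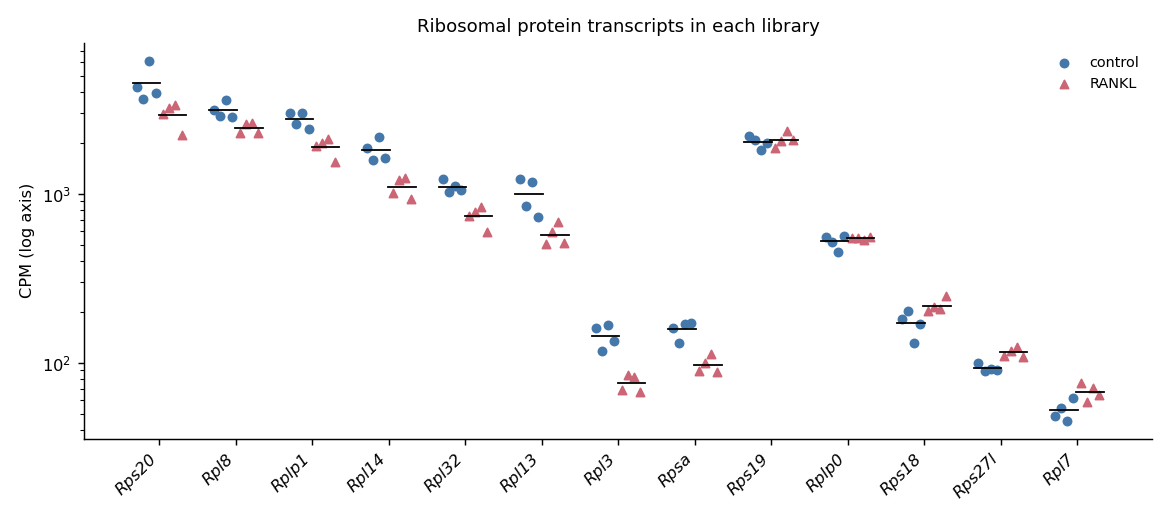
CPM on a log axis in each library for 13 ribosomal protein genes, with circles for the 4 control and triangles for the 4 RANKL libraries and a line at each mean. For Rps20, Rpl8, Rplp1, Rpl14, Rpl32, Rpl13, Rpl3 and Rpsa all RANKL points lie below all control points, Rps19 and Rplp0 overlap, and Rps18 and Rps27l lie higher with RANKL, with RANKL 1 and control 2 of Rps18 nearly touching at 203 CPM.

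The P stalk, the flexible arm of the large subunit that recruits elongation factors, had 1 call among its 4 members (25.0%, against 25.9% of all genes tested). Rplp1, one of its acidic proteins, had 3020.4, 2590.3, 2990.1 and 2432 CPM in control and 1905, 2008, 2120.5 and 1548 CPM in RANKL libraries, with no overlap (log2 fold change -0.54 ± 0.10 SE; edgeR's quasi-likelihood test, Benjamini-Hochberg adjusted p = 0.00017). Its partner Rplp2, the other acidic protein, had 85.3, 124, 131 and 124 CPM in control and 132, 141, 124 and 149 CPM in RANKL libraries. These values overlapped, and the log2 fold change of 0.26 ± 0.13 (SE) did not pass (adjusted p = 0.14, same test, and 0.028 without control 3). Without control 1, which held 85.3 CPM, the log2 fold change of Rplp2 was 0.11. The base of the stalk, Rplp0, was at 453 to 559 CPM in control and 536 to 557 in RANKL libraries (0.07 ± 0.09 SE on the log2 scale), and Rpl12, which binds beside it, at 34.4 to 45.8 and 37.2 to 53.3 CPM (0.10 ± 0.15 SE on the log2 scale).

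At the rim of the tunnel through which the nascent chain leaves, 3 of 8 tested members were lower (37.5%, against 25.0% of the tested family and 12.4% of all genes) and the median log2 fold change was -0.29. Rpl26 had 689, 503, 641 and 585 CPM in control and 362, 374, 492 and 361 CPM in RANKL libraries, and RANKL 3 came close to the lowest control without reaching it (log2 fold change -0.60 ± 0.11 SE; edgeR's quasi-likelihood test, Benjamini-Hochberg adjusted p = 0.00012). Rpl17 had 118 to 141 CPM in control and 63.7 to 102 CPM in RANKL libraries (-0.53 ± 0.13 SE on the log2 scale, adjusted p = 0.0022). Rpl22 had 1031 to 1329 CPM in control and 808 to 1037 CPM in RANKL libraries, so the groups just overlapped (-0.31 ± 0.10 SE, adjusted p = 0.023). Rpl19, at 6.88 to 15.2 and 7.14 to 15.8 CPM, had a log2 fold change of -0.42 ± 0.28 (SE) that did not pass (adjusted p = 0.29).

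Rpl5 and Rpl11, which carry the 5S ribosomal RNA into the large subunit and bind Mdm2 when they are free of it, were both scarce and neither passed. Rpl5 was at 5.16 to 8.87 CPM in control and 4.84 to 7.82 in RANKL libraries, and Rpl11 at 11.5 to 18.3 and 7.14 to 14.5 CPM. Their log2 fold changes were -0.20 ± 0.29 and -0.49 ± 0.25 (SE).

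In the small subunit, 2 of the 5 members at the mRNA exit passed (40.0%, against 25.9% of all genes tested). These were Rpsa and Rps26, both lower, and the median log2 fold change was -0.36. Rps26, which contacts the message upstream of the start codon, had 756, 665, 737 and 674 CPM in control and 554, 553, 576 and 483 CPM in RANKL libraries, with a clear gap between the groups (-0.39 ± 0.09 SE on the log2 scale; edgeR's quasi-likelihood test, Benjamini-Hochberg adjusted p = 0.0021). Rps28 overlapped between the groups at 114 to 192 and 84.6 to 149 CPM (-0.36 ± 0.15 SE, adjusted p = 0.071). It passed without RANKL 3, control 3 or control 4 (adjusted p = 0.042, 0.015 and 0.025). Without RANKL 4, its lowest library, the log2 fold change of Rps28 was -0.18. At the mRNA entry neither member passed. Rps3 had 1238 to 1734 CPM in control and 1421 to 1584 in RANKL libraries (-0.02 ± 0.10 SE). Rps2 had 51.2 to 70.2 and 58.1 to 102 CPM (0.35 ± 0.15 SE, adjusted p = 0.081, and 0.048 and 0.026 without RANKL 1 and control 1). Without RANKL 4, which held 102 CPM, the log2 fold change of Rps2 was 0.15.

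Other members that passed as lower included Rpl32, Rpl18 and Rpl13a of the large and Rps15a and Rps10 of the small subunit. Rpl32 had 1026 to 1222 CPM in control and 595 to 829.7 in RANKL libraries, without overlap (-0.59 ± 0.10 SE on the log2 scale; edgeR's quasi-likelihood test, Benjamini-Hochberg adjusted p = 5.6e-05). Rps15a did not overlap at 316 to 411 and 191 to 309.7 CPM, but RANKL 4 stood far under the others (-0.39 ± 0.12 SE, adjusted p = 0.017). Rps10, with 436 counts over all libraries, was at 17.2 to 24.7 CPM in control and 9.69 to 17.9 in RANKL libraries (-0.66 ± 0.22 SE, adjusted p = 0.024). Rpl18 was at 60.2 to 96.3 and 56.5 to 61.0 CPM (-0.44 ± 0.14 SE, adjusted p = 0.016), and Rpl13a at 78.1 to 101 and 64.8 to 74.3 CPM (-0.36 ± 0.12 SE, adjusted p = 0.033). Annotated readthrough or overlapping transcripts cover up to 86.0% of the last 300 bases of Rps10 and up to 100% of those of Rpl13a on the same strand, so reads could be shared there. Each percent is the largest over the coding transcripts of the gene.

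Under the 21 alternatives run for the calls, 7 members were lower under every one: Rpl3, Rpl13, Rpl14, Rpsa, Rps20, Rpl26 and Rpl32. Rplp1 missed 1 of them, the added minimum of a 1.5-fold change. Of the 20 called members, 8 lost the call when 1 library was left out, among them all 3 that were higher. For Rps10 this was so without RANKL 1, RANKL 3, RANKL 4 or control 1, with adjusted p from 0.051 to 0.12 (edgeR's quasi-likelihood test, Benjamini-Hochberg adjusted). Rpl13a lost it without RANKL 2, 3 or 4 or control 1 or 2 (0.062 to 0.15) and Rpl18 without RANKL 4 or control 1 (0.054 to 0.12). Rpl22 lost it without RANKL 2 or 4 or control 1 or 2 (0.052 to 0.12) and Rps15a without RANKL 4 or control 1 (0.069 to 0.14). Of the higher members, Rps18 lost it without RANKL 2 or 4 or control 3 (0.054 to 0.13), Rpl7 without RANKL 1, 3 or 4 or control 1 or 3 (0.052 to 0.10), and Rps27l without RANKL 1, 2 or 3 or control 2 or 4 (0.050 to 0.14).

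Not all abundant members passed. Rps19, the gene most often mutated in Diamond-Blackfan anaemia, had 2188, 2082, 1810.4 and 1988 CPM in control and 1869.5, 2057, 2357 and 2086 CPM in RANKL libraries. Its groups overlapped over most of their range, with a log2 fold change of 0.05 ± 0.10 (SE).

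The 3 members that passed as higher did so narrowly. Rps18, at the head of the small subunit, had 182, 203, 131 and 169 CPM in control and 203, 213, 207 and 248 CPM in RANKL libraries. Its lowest RANKL value lay only just above its highest control, and the log2 fold change was 0.35 ± 0.12 (SE; edgeR's quasi-likelihood test, Benjamini-Hochberg adjusted p = 0.027). Rpl7, a large-subunit protein, had 48.3, 54.2, 45.4 and 61.9 CPM in control and 75.9, 58.5, 70.9 and 64.3 CPM in RANKL libraries. One RANKL library lay within the range of the controls (0.40 ± 0.13 SE, adjusted p = 0.028). Rps27l, a near copy of Rps27 known as a target of p53, had 99.1, 89.1, 92.2 and 91.1 CPM in control and 109.8, 118, 124 and 109 CPM in RANKL libraries. The groups did not overlap and the libraries of each were close together (0.31 ± 0.11 SE, adjusted p = 0.038). Just outside the threshold, Rpl38, a large-subunit protein needed for the translation of Hox messages in the embryo, had 129, 98.7, 75.8 and 73.9 CPM in control and 111, 109, 117 and 177 CPM in RANKL libraries (0.41 ± 0.16 SE, adjusted p = 0.051). With the same test the adjusted p was 0.0017 without control 1, 0.049 without RANKL 1 and 0.04 without RANKL 2. The log2 fold change of Rpl38 was smaller, at 0.20, without RANKL 4, which held 177 CPM, and 0.27 without control 3.

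Mutations of 20 of the members are known in the inherited anaemia named after Diamond and Blackfan. Of the 17 tested, 6 were lower (35.3%, against 25.0% of the tested family and 12.4% of all genes), and the list's median log2 fold change was -0.27. Rps20, Rpl26 and Rps10 had the largest changes of this list, as given above.

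Paralogues are related copies of ribosomal proteins, and some of them can take the place of the common form. Ratios between such pairs were compared within each library, since both counts then share the same depth, and 4 of 7 pairs had enough counts. Rpl22l1 to Rpl22 stood at 0.0709, 0.0668, 0.0547 and 0.0655 in control and at 0.0985, 0.0802, 0.0832 and 0.0879 in RANKL libraries. Every RANKL ratio was above every control ratio, with a log2 difference of 0.44 (exact two-sided permutation test, n = 4 and 4, p = 0.0286, the smallest this design can give, and 0.0572 adjusted over the 4 pairs). Rpl22l1 itself was at 56.3 to 94.2 CPM in control and 70.8 to 96.9 in RANKL libraries (0.07 ± 0.14 SE on the log2 scale), while Rpl22 was lower.

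Rpl7l1 to Rpl7 moved the other way, with 2.41, 2.39, 2.97 and 2.29 in control and 1.91, 2.01, 1.69 and 1.57 in RANKL libraries. Again the groups did not overlap, and the log2 difference was -0.49 (exact two-sided permutation test, n = 4 and 4, p = 0.0286, adjusted 0.0572). Rpl7l1, a protein known from large-subunit precursors in the nucleolus, was at 116 to 143 CPM in control and 101 to 145 in RANKL libraries (-0.12 ± 0.12 SE on the log2 scale). Rps27l to Rps27 overlapped, at 17 to 22.9 and 22.7 to 36.1 (log2 difference 0.51, exact permutation p = 0.0571, adjusted 0.0761), and the denominator held only 96 counts over all libraries. Rps4l, which is not annotated as protein coding, was compared with Rps4x in the same way. This ratio also overlapped, at 11.3 to 34.6 and 8.89 to 13.4 (log2 difference -0.77, exact permutation p = 0.114, adjusted 0.114), with 81 counts of Rps4x. With adjustment over the 4 pairs no pair passed 0.05. Much 3′ end sequence of Rps27 (100%), Rpl7 (74.1%), Rpl22l1 (63.3%) and Rps4x (62.2%) also occurs in transcripts of other genes, by the measure described below. It was less for Rpl22 (23.9%), Rps27l (21.9%) and Rpl7l1 (2.4%). A ratio within a library does not correct for this, so it need not give the true proportion of the messages. The part of shared sequence in the ratios was not tested. Rpl3l, Rpl39l and Rpl10l had 0 counts in all libraries, where an upper limit of 3 counts per library corresponds to 0.382 CPM in control 1 and to 5.16 CPM in control 4.

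**Figure D4:**
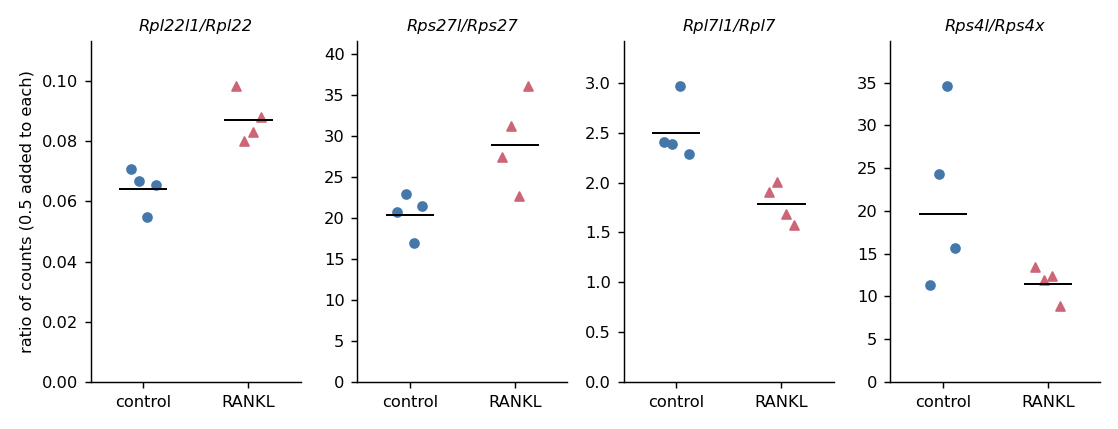
Ratio of the counts of a paralogue to those of the common form in each library, 0.5 added to each count (vertical axes from 0, a separate scale in each panel), with a line at the geometric mean of 4 control (circles) or 4 RANKL libraries (triangles). The groups are apart for Rpl22l1 to Rpl22 (0.0547 to 0.0709 against 0.0802 to 0.0985) and for Rpl7l1 to Rpl7 (2.29 to 2.97 against 1.57 to 2.01), and overlap in the other 2 panels. Rps4l is not annotated as protein coding.

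The measured level differed by orders of magnitude between members although the ribosome holds most of these proteins in equal number, from 90828 counts of Rps20 over all libraries to 6 of Rps6, the protein phosphorylated by S6 kinase, and 2 of Rpl24. Besides the 3 members at 0, 12 had 2 to 96 counts each, 694 in all, and were not tested, among them Rps6, Rpl24 and Rps27a, which is made as a fusion with ubiquitin (74 counts). Ribosomal protein genes have many processed pseudogene copies, and the share of the 50-base windows of a member's last 300 transcript bases that also occur in a transcript of another gene was computed from the annotation, 50 bases being the read length. Where a member had several coding transcripts, the one with the most shared windows was taken. The share was 0% for 14 members and 100% for 6. The 23 members with counts and at most 30% of windows shared had a median of 535 CPM, and the 57 with more had 52.9 CPM (Spearman's rho -0.53 over 80 genes of the same libraries, a description across genes). Of the 12 scarce members, 11 had more than 30% shared. How the counting treated reads that fit several places is not given in the sources used here, and the part of shared sequence in the levels was not tested. Rpl5 and Rpl11 were scarce with 0% of windows shared.

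**Figure D5:**
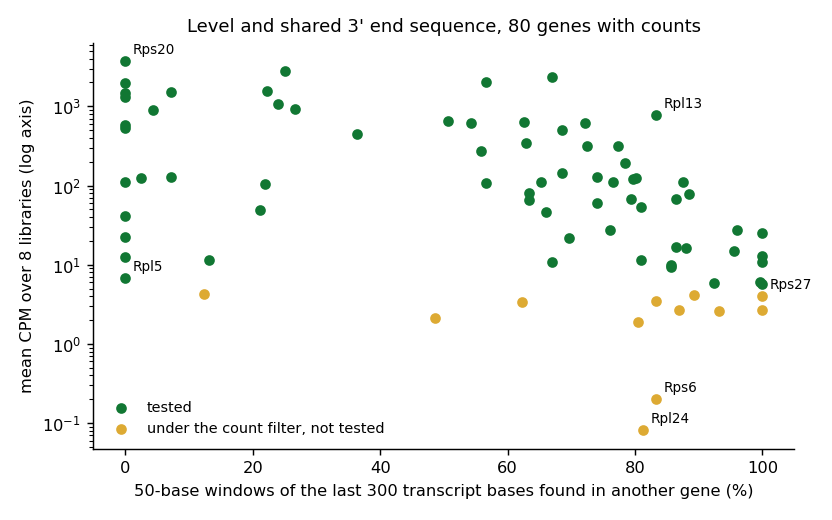
Mean CPM over 8 libraries on a log axis against the percent of 50-base windows of the last 300 transcript bases found in a transcript of another gene, for the 80 ribosomal protein genes with counts. The percent is that of the coding transcript with the most shared windows. Green points were tested and yellow points lay under the count filter, and genes with a high percent lie lower on average, with Rpl13 (83.3%) high and Rpl5 (0%) low as examples against the trend.

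Among the 22 tested members with at most 30% of windows shared, Rps20, Rpl8, Rpl14, Rpl22 and Rpl32 were lower (22.7%) and Rps27l higher (4.55%). Their median log2 fold change was -0.10. Among the 46 with more, 12 were lower (26.1%) and 2 higher (4.35%), with a median of -0.06. In the tested family 25.0% were lower, and over all genes tested 12.4% were lower and 13.6% higher. Rpl3, Rpl13 and Rpsa, 3 of the members with the deepest falls, had 76.5%, 83.3% and 74.1% of windows shared, whereas Rps20 and Rpl14 had 0%. The part of reads from other genes in these changes was not tested.

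Other messages of the translation apparatus that carry TOP motifs were called about as often as other genes. Of 20 tested translation factors of this kind, 6 passed (30%, against 25.9% of all genes tested), all 6 of them lower (against 12.4% of all genes), and the median log2 fold change was -0.15. Eef1a1, which brings aminoacyl-tRNA to the ribosome, had 235, 207, 359 and 275 CPM in control and 166, 162, 179.9 and 139 CPM in RANKL libraries, without overlap (-0.73 ± 0.13 SE on the log2 scale; edgeR's quasi-likelihood test, Benjamini-Hochberg adjusted p = 9.4e-05). Pabpc1, which binds the poly(A) tail, was at 1502 to 1636 CPM in control and 947 to 1252 in RANKL libraries (-0.42 ± 0.10 SE, adjusted p = 0.0017), and Npm1, a nucleolar chaperone, at 291 to 397 and 213 to 268 CPM (-0.44 ± 0.11 SE, adjusted p = 0.0025). Eef2, the translocation factor, did not overlap between the groups at 4107 to 4936 and 3269.5 to 4058 CPM, but its log2 fold change of -0.25 ± 0.10 (SE) did not pass (adjusted p = 0.058, and 0.045 without control 2).

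Members of the ribosome under other names gave little. Rack1, a scaffold protein at the head of the small subunit, had 2739 to 3261 CPM in control and 2541 to 2977 in RANKL libraries (-0.09 ± 0.10 SE on the log2 scale). Fau, made as a fusion with a ubiquitin-like sequence, had 98 counts and was not tested. Rpl36al, a copy of Rpl36a, was at 10.7 to 20.6 CPM in control and 2.20 to 11.7 in RANKL libraries (-1.17 ± 0.32 SE; edgeR's quasi-likelihood test, Benjamini-Hochberg adjusted p = 0.0057), and without RANKL 4 the adjusted p was 0.066.

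Chaperones and importers that escort new ribosomal proteins were lower in 5 of 11 tested (45.5%, against 12.4% of all genes tested), with a median log2 fold change of -0.32. Of these calls, Npm1 and Nap1l1 also count among the lower translation factors above, so the lists are not separate. The other lower genes included Bccip, a chaperone of Rpl23, at 31.8 to 70.5 CPM in control and 18.1 to 28.9 in RANKL libraries (-0.76 ± 0.21 SE, edgeR's quasi-likelihood test, Benjamini-Hochberg adjusted p = 0.0059). Ltv1, an assembly factor of the small subunit, was at 27.5 to 31.9 and 13.7 to 25.5 CPM (-0.54 ± 0.19 SE, adjusted p = 0.034, and 0.061 to 0.24 without RANKL 1 or 4 or control 1).

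In the mTOR and LARP1 list 9 of 31 tested genes passed (29.0%, against 25.9% of all genes tested), 3 higher and 6 lower, with a median of -0.06. Larp1, which holds TOP messages back, was at 86.7 to 105 CPM in control and 79.6 to 95.3 in RANKL libraries (-0.18 ± 0.12 SE on the log2 scale, not past the threshold). Pdcd4, an inhibitor of the helicase eIF4A, was at 221 to 241 and 84.0 to 111 CPM (-1.19 ± 0.11 SE; edgeR's quasi-likelihood test, Benjamini-Hochberg adjusted p = 3.9e-10). Akt1s1, an inhibitor of mTOR complex 1, was lower (-0.95 ± 0.19 SE, adjusted p = 0.00024), and Rraga, a GTPase that recruits this complex to the lysosome, was higher (0.57 ± 0.17 SE, adjusted p = 0.011, and 0.13 without RANKL 4). Also higher were Ddit4, another inhibitor of the complex (0.46 ± 0.12 SE), and Lamtor4 (0.46 ± 0.11). Deptor (-0.53 ± 0.10 SE), Larp4 (-0.44 ± 0.16), the S6 kinase gene Rps6kb1 (-0.35 ± 0.12) and Lamtor2 (-0.34 ± 0.12) were lower.

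Factors that drive ribosomal protein genes or stand close to MYC passed in 8 of 15 tested (53.3%, against 25.9% of all genes tested), 5 higher and 3 lower. Myc, known to raise the transcription of ribosomal protein genes, had 9.68, 8.59, 8.36 and 15.5 CPM in control and 6.46, 3.44, 5.22 and 5.49 CPM in RANKL libraries. All RANKL values were lower, on few counts (179 over all libraries), with a log2 fold change of -0.91 ± 0.31 (SE; edgeR's quasi-likelihood test, Benjamini-Hochberg adjusted p = 0.029), and the adjusted p was 0.059 to 0.12 without RANKL 2, 3 or 4 or control 1. Mycl, its relative, had 22.5, 19.1, 16.7 and 37.8 CPM in control and 79.1, 81.2, 80.8 and 95 CPM in RANKL libraries (2.00 ± 0.16 SE, adjusted p = 3.2e-11). Mxi1, a partner of MAX that opposes MYC, and Gabpa, an ETS factor, were lower, with log2 fold changes of -0.84 ± 0.21 and -0.79 ± 0.24 (SE). Gabpa lost its call without RANKL 3 or control 2 (edgeR's quasi-likelihood test, Benjamini-Hochberg adjusted p = 0.058 and 0.065). The other calls of this list went the other way. Gabpb1 (0.87 ± 0.28 SE), Max (0.54 ± 0.12), Mxd1 (0.40 ± 0.13) and Mxd4 (0.27 ± 0.10) were higher.

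The mitochondrial ribosome, a separate particle with its own proteins, had calls near the background. Of 73 tested genes 19 passed (26.0%, against 25.9% of all genes tested), 7 higher and 12 lower, with a median of -0.04. Mrpl45 was the clearest, at 55.0 to 78.3 CPM in control and 113 to 129 in RANKL libraries (0.81 ± 0.12 SE on the log2 scale; edgeR's quasi-likelihood test, Benjamini-Hochberg adjusted p = 3.1e-06). Mrpl44 was higher by 0.70 ± 0.21 and Mrps27 lower, with -0.68 ± 0.24 (SE). Mrpl44 lost its call without RANKL 4 (adjusted p = 0.25, same test), and Mrps27 without RANKL 1, 3 or 4 or control 3 (0.067 to 0.11). Of the 300 pseudogenes 11 were tested and 2 passed (18.2%). Rpl31-ps8 was lower (-0.79 ± 0.22 SE) and Rpsa-ps1 higher (0.82 ± 0.25 SE), and both lost the call without RANKL 4 (adjusted p = 0.074 and 0.13, same test).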

How the data were processed

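The deposited values are raw counts of reads per gene in 4 control and 4 RANKL libraries, with no normalization. Before that, the authors used BBDuk for trimming and bowtie2 to take out ribosomal, mitochondrial and phiX reads, then STAR on GRCm38 and strand-specific featureCounts on Ensembl genes. Handling of reads that match several places is not given in the sources used here. Groups come from the sample titles.

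Symbols and coordinates were taken from GENCODE release M21 by identifier (54495 of 54532 genes matched, and the others held 0.0067% of counts). Members and gene lists were chosen with earlier results of these data known. CPM used library totals scaled by TMM. In R 4.3.3, edgeR 4.0.16 tested RANKL against control with its filter on low counts, and p-values were adjusted over 9971 genes. The SE is the log2 fold change over the square root of F. Paralogue ratios used exact permutation over 70 assignments. Shares carry Wilson intervals, which like floors cover counting error only. Lowest libraries of 583663 counts limit precision for genes under 10 CPM. Steps were tested on simulated data. Alternatives used DESeq2 1.42.0 and limma 3.58.1 (voom). Tables were handled in Python 3.11.15 with pandas 2.3.3.

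Named members were the members with the 6 largest rises and 6 largest falls (mean CPM of 50 or more), the 3 most abundant, all stalk, 5S, ubiquitin-fusion and paralogue members, up to 3 of each other role, and all members that passed where these were at most 20. Rps6, Rps19, Rps21, Rpl24, Rps4l and Nap1l1 were named after their values were seen, as were further genes that passed in the MYC and mTOR lists. In the lists of other genes, up to 3 genes each that passed at 10 CPM or more were named, beside Myc, Larp1, Eef1a1, Eef2, Fau and Rack1. Some genes this rule names are not reported here.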

Additional observations from a re-analysis of the deposited data

Results flagged for a closer look

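In 78 groups of 4 libraries (each named member, the share, the subunit ratio and the paralogue ratios, by condition), 6 held 1 library whose gap to the next value exceeded Dixon's 95% critical share of the group's range, where chance gives about 1 in 20, or 3.9. Among RANKL libraries, Rpl26 was 492 CPM in RANKL 3 against 374 in the next, and Rpl19 15.8 CPM in RANKL 2 against 8.07. RANKL 4 stood apart in 3 groups. Rpl38 was 177 CPM there against 117 in the next library, Rps15a 191 CPM against 292, and the ratio of large- to small-subunit counts 0.98 against 1.01. Among control libraries, Rplp2 was 85.3 CPM in control 1 against 124 in the next. The reason for these single values was not tested.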

How the results depend on the processing

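The lower share of the family kept its direction under every alternative, with log2 ratios of -0.28 to -0.21 with 1 library left out and -0.16 without the 3 most abundant members, an alternative chosen after seeing the data. Calls among the members (20, with 3 higher and 17 lower) ranged from 13 to 21 with 1 library left out, the higher ones from 1 to 6 and the lower ones from 12 to 18. DESeq2 and no count filter each left 1 higher member. The depth covariate left 12 (1 higher, 11 lower), an adjusted p of 0.01 left 12 (0 higher by edgeR) and a fold of at least 1.5 left 8 lower ones (0 higher). In the 22 tested members with at most 30% of windows shared, chosen after seeing the data, 6 passed (1 higher, 5 lower), since fewer genes were counted. That is 27.3%, against 25.9% of all genes tested. Scaled to the family's own sum, which removes the fall of the sum by construction, 17 were higher and 8 lower, the members' median was 0.20 and that of all genes 0.29. Of the 20 called members, 7 lost the call under no alternative on the calls, 1 (Rplp1, with the minimum fold) under 1 and 12 under more than 1.

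Some genes changed direction, and scaling to the family's sum moves all genes up (median 0.29). Rpl5 was 0.0615 with the depth covariate and 0.10 scaled to the family, Rpl22l1 ranged from -0.0918 without control 3 to 0.2234 without control 1, and Rpl7l1 0.16, Larp1 0.11, Eef2 0.0257 and Rack1 0.18 scaled to the family. Rps3 was 0.0007 with at least 10 counts in every library, 0.0059 with library totals and 0.26 scaled to the family, and ranged from -0.1057 without control 3 to 0.059 without control 1 (0.0075 without RANKL 4, 0.0023 without control 2). The ratios differed with 1 library left out by 0.36 to 0.49 (Rpl22l1 to Rpl22), 0.40 to 0.62 (Rps27l to Rps27), -0.54 to -0.40 (Rpl7l1 to Rpl7) and -1.04 to -0.50 (Rps4l to Rps4x) on the log2 scale.

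Same-numbered control and RANKL libraries did not deviate together (correlations of -0.007, -0.033, 0.101 and 0.035), so the replicate number was not taken as a pairing. With the number as a replicate block, 21 members passed, 4 higher and 17 lower, with a median of -0.10. At these depths a change of 0.2 on the log2 scale could not be seen in members under 100 CPM, where the median SE was 0.21.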
